A study of Mus musculus with 6 samples.

Results

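The genes described here encode proteins of the splicing machinery: 52 genes of the 20323 that had a value in all 6 libraries. They are the rows whose symbol begins with Snrp, Srsf and a digit, Hnrnp, Sf3a or Sf3b, leaving out the imprinted gene Snrpn. They comprise 7 genes of the Sm core, 4 of the U1 and U2 small nuclear ribonucleoproteins (snRNPs), 9 of the SF3a and SF3b complexes, 11 SR protein genes and 21 heterogeneous nuclear ribonucleoprotein (hnRNP) genes. The libraries came from the hippocampus of Nestin-CreERT2;Rosa26-mGFP mice. In these an inducible Cre recombinase (CreERT2) under the Nestin promoter, once activated, switches on a membrane GFP in neural progenitor cells. Their progeny inherit the label. GFP-positive cells were pulled out on magnetic beads, and 1 mouse gave 1 library. All mice, controls included, ate cuprizone, a copper chelator that strips myelin, for 10 weeks and then recovered for 4 weeks. Vehicle was saline with 0.1% bovine serum albumin (3 mice). The other 3 mice were given neuregulin 1 beta 1 (Nrg-1β1), a ligand of ErbB receptors, at 60 per kg per day (micrograms in the series text, grams in the sample labels). The comparison asks how Nrg-1β1 treatment altered gene expression in these cells once cuprizone feeding had ended; the mice's ages are not given in the labels used here, and no group without cuprizone was analysed.

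Introns are removed from pre-mRNA by the spliceosome, which is assembled anew on each intron from snRNPs. The Sm proteins form a ring around the U1, U2, U4 and U5 RNAs, and SF3a and SF3b belong to the U2 snRNP that binds the branch site. SR proteins, which carry arginine and serine repeats, mostly help an exon to be recognised, while hnRNPs coat nascent RNA and often repress exons. In the brain the balance of these proteins with tissue-specific regulators sets which exons neurons and glia include. Many SR and hnRNP genes limit their own output by splicing in exons that mark the transcript for decay, and a gene-level count cannot separate such transcripts from coding ones.

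Promoters of 46 of the 52 genes were found in the RefSeq table of GRCm38.p6, with 60 start sites, and the 250 bases before each start were searched on both strands for 5 short motifs. ETS family factors were searched as CCGGAAG, the GC box as GGGCGG and the TATA box as TATAAA. The CCAAT box was searched by its name's letters, and NRF1 as GCGC and TGCGC with 1 free base between them. The ETS letters were in 31.7% of the 60 windows, against 6.91% of all 32851 windows of the table and 12.3% of 7036 windows of genes whose mean normalized count was 50 or more. The NRF1 letters were in 16.7%, against 3.74% and 8.48%, and GC boxes in 70.0%, against 32.7% and 60.1%. CCAAT boxes were in 45%, against 33.8% and 33.7%, and TATA letters in 10.0%, against 12.4% and 5.96%. The median window held 61.2% G and C, compared with 61.6% in the windows of genes at that level and 52.4% in all windows. Windows of 1 gene are not independent, and a match is only a match of letters. The promoters below are those of the 2 genes with a positive and the 2 with a negative difference between groups that had the smallest p among genes with a single listed start. Capitals mark the motif letters.
Hnrnpa0, chr13:58128557-58128806, minus strand: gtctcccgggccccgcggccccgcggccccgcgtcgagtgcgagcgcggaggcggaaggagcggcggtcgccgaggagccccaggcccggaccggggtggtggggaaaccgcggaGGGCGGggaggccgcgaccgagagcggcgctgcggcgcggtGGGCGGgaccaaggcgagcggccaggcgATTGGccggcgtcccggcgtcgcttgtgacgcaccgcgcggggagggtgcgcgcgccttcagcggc
Hnrnpc, chr14:52104022-52104271, minus strand: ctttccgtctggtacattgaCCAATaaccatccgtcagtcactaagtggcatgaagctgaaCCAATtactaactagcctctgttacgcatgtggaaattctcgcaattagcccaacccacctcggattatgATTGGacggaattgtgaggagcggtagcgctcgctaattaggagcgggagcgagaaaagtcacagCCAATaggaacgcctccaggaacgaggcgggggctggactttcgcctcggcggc
Srsf9, chr5:115326927-115327176, plus strand: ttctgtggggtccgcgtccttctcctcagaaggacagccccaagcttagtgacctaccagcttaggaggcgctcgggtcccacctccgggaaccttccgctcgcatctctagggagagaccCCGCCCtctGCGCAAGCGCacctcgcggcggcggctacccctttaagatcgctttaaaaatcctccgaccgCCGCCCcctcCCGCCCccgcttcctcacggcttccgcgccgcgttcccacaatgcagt
Sf3b1, chr1:55027479-55027728, minus strand: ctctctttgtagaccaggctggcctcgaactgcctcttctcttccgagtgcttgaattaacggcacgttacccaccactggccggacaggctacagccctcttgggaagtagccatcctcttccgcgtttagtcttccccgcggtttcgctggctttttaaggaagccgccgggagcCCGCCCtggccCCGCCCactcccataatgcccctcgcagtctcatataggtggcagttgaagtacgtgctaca
The Hnrnpc window carried 4 CCAAT boxes and no GC box, and the Hnrnpa0 window 1 CCAAT box and 2 GC boxes. Srsf9 had 3 GC boxes and the only NRF1 match of these windows, and Sf3b1 had 2 GC boxes; none of the 4 held the ETS or TATA letters. Their share of G and C was 81.2% for Hnrnpa0, 65.2% for Srsf9, 58.4% for Sf3b1 and 52.8% for Hnrnpc, so the chosen windows differed widely in base composition.

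The deposited values are log2(normalized count + 4), and the whole reads behind them could be recovered. The libraries were of very unequal depth, from 567073 reads in Nrg-1β1 library 1 to 72953034 in vehicle library 1. Vehicle libraries 1 and 3, with over 10000000 reads, are called deep here and the other 4, with at most 1327003, shallow. All 52 genes had at least 10 reads in each deep library, but 34 to 42 of them did in a shallow library, and 32 had at least 10 reads in all 6. The mean normalized count reached 50 for 37 genes. The labelled cell type was checked on 11 neural stem and progenitor genes. All were in the table, 5 of them with a negative difference, and Sox1 alone passed (it rose by 1.96 ± 0.39, adjusted p = 0.019, limma). The summed normalized count of the 11 was 3050 to 3677 in vehicle and 3838 to 5490 in Nrg-1β1. These sums were below those of the astrocyte and oligodendrocyte markers given further on, though the lists hold different genes. Nes, whose promoter drives the Cre, differed by -1.65 ± 0.42 (adjusted p = 0.058, limma; 23 to 3869 vehicle reads against 6 to 9), Prom1 by -1.58 ± 0.58 and Vim by -1.41 ± 0.44. Sox2 had 85 to 6024 reads and Gfap 411 to 29225, while Eomes, a marker of intermediate progenitors, had 1, 0 and 0 reads in the Nrg-1β1 libraries. Markers of other cells moved with the group. All 8 endothelial markers fell (limma), and their summed normalized count was 571.1 to 2836 in vehicle and 98.1 to 130.7 in Nrg-1β1. Of 8 microglial markers 4 fell (5873 to 9201 against 2221 to 2748), of 6 choroid plexus and ependymal markers 3 fell (1503 to 5142 against 158.3 to 276.5), of 6 pericyte and smooth muscle markers 1 fell (169.8 to 419.0 against 51.1 to 103.3, with Kcnj8 at 0 in Nrg-1β1), and all 4 measured erythroid markers fell (3291 to 9484 against 437.5 to 1994). None of 8 neuronal, 6 astrocyte or 6 oligodendrocyte markers passed (3880 to 5757 against 5755 to 8510; 20361 to 31537 against 33824 to 39585; 91079 to 188413 against 106154 to 139115). Passing or not, all microglial, choroid plexus and ependymal, and pericyte and smooth muscle markers had a negative difference. All oligodendrocyte markers had one too, while no neuronal or astrocyte marker did. Among all genes 1.06% passed (limma). The part of these markers, and of depth, in the results for the splicing genes was not tested. In bulk samples, fewer cells of a type and less RNA per cell cannot be told apart.

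None of the 52 genes passed the test between Nrg-1β1 and vehicle. At an adjusted p of 0.05 (limma, Benjamini-Hochberg over all 20323 genes) 0 of 52 were called, whereas 1.06% of all genes were. The median difference of the 52 genes, Nrg-1β1 minus vehicle, was 0.00 on the log2 scale (27 positive, 25 negative), and that of all genes 0.03. At an unadjusted p of 0.05, 8 of 52 passed, 4 higher and 4 lower, beside 13.0% of all genes (6.15% higher, 6.86% lower) and 19.8% (11.8% higher, 7.96% lower) of the 6731 genes whose mean normalized count was 50 or more. The groups did not overlap for 11 of 52, 4 higher and 7 lower, beside 17.7% of all genes (7.37% higher, 10.4% lower) and 23.2% (13.7% higher, 9.55% lower) of those 6731. All of these genes were among the 37 at that level, of which 21.6% passed at the unadjusted p (10.8% in each direction) and 29.7% had groups that did not overlap (10.8% higher, 18.9% lower). These shares rest on 7 lower and 4 higher genes, and their difference from the background was not tested. limma-voom on the recovered reads called 0 of the 37 genes it tested, with 7 at an unadjusted p of 0.05, while 0.0149% and 13.0% of its 6731 genes passed. The standard errors ran from 0.27 to 0.69, and the 95% interval lay within a difference of 1 in either direction for 16 of the 52 genes. For the other 36 a change of 2-fold in at least 1 direction was inside the interval, so a missing call does not show equal levels.

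**Figure D1:**
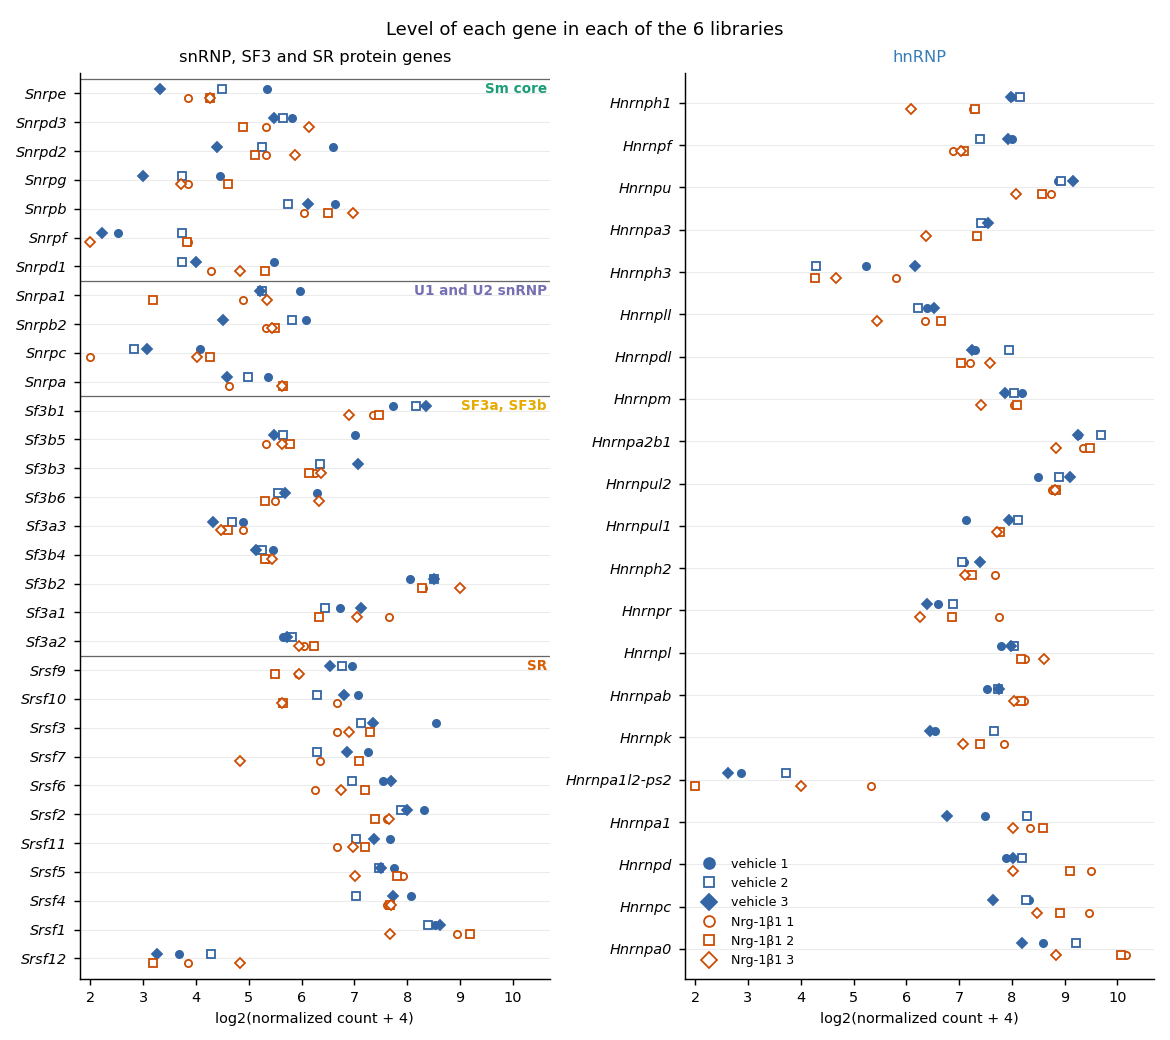
Log2(normalized count + 4) of the 52 genes in each library, with snRNP, SF3 and SR protein genes on the left and hnRNP genes on the right, ordered within a role by the difference between groups. Blue marks vehicle and orange Nrg-1β1; filled symbols are the 2 deep libraries and open symbols the 4 shallow ones. Hnrnpa2b1 lies highest in the 3 vehicle libraries, while Hnrnpa0 lies highest in Nrg-1β1 libraries 1 and 2 and Sf3b2 in library 3; the Sm core genes spread widely among the vehicle libraries.

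**Figure D2:**
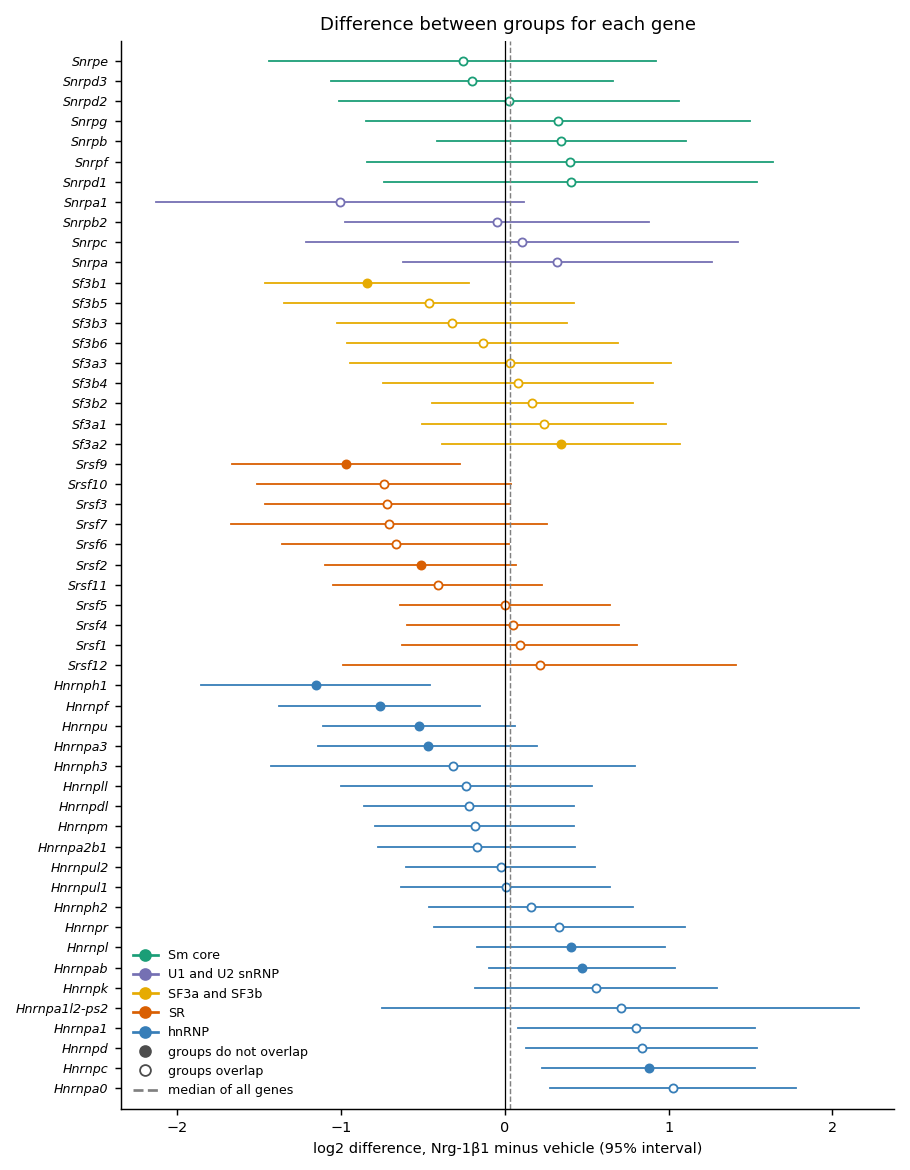
Difference between groups for each of the 52 genes (points, Nrg-1β1 minus vehicle on the log2 scale) with its 95% interval from limma. Filled points have groups that do not overlap (11 genes), the dashed line is the median of all genes at 0.03, and 44 of the 52 intervals include 0.

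Levels between genes were compared per kilobase of transcript (GENCODE M21 lengths). Hnrnpa2b1, an hnRNP that packages RNA and also directs its transport, was the most abundant, with 410.8 ± 75.3 normalized counts per kilobase among vehicle libraries and 367.0 ± 80.6 among Nrg-1β1 libraries (SD, n = 3 each). In vehicle it was followed by Srsf2, which binds exonic enhancers, at 164.9 ± 27.8, and by Hnrnpa0 at 156.1 ± 57.3, and those 2 did not differ beyond their spread. In Nrg-1β1 Hnrnpa0 stood at 331.3 ± 141.4, within its spread of Hnrnpa2b1, and Srsf2 at 114.1 ± 11.2. At the other end, Srsf12, an SR protein that can repress splicing, had 3.38 ± 1.71 in vehicle and 4.51 ± 3.38 in Nrg-1β1, and Snrpf 4.52 ± 5.43 and 7.95 ± 6.89. The median over genes in vehicle was 67.7 for SR genes, 66.3 for hnRNP genes, 24.1 for the Sm core, 21.7 for SF3 and 21.5 for the U1 and U2 proteins. These levels rest on annotated lengths, so a gene with long annotated ends, such as Sf3b5 (3841 bases), is set low.

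Together the 52 genes took 0.190%, 0.255% and 0.282% of the reads in vehicle libraries 1 to 3 and 0.329%, 0.271% and 0.176% in Nrg-1β1 libraries 1 to 3. The exact 95% counting interval was 0.246% to 0.265% for vehicle library 2 and 0.314% to 0.344%, 0.259% to 0.284% and 0.169% to 0.183% for the Nrg-1β1 libraries. These intervals cover counting error only. The highest and the lowest share were both in the Nrg-1β1 group, which therefore spanned the vehicle libraries. Most of that spread was hnRNP reads, at 0.105%, 0.170% and 0.169% in vehicle and 0.233%, 0.183% and 0.109% in Nrg-1β1. A share also depends on the reads of all other genes. On the deposited log2 scale the median hnRNP difference between vehicle libraries 1 and 3 was 0.00. SR reads were at 0.0525%, 0.0456% and 0.0654% in vehicle and 0.0554%, 0.0540% and 0.0302% in Nrg-1β1, lowest in Nrg-1β1 library 3.

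The Sm core genes encode the ring shared by the spliceosomal snRNPs, and their differences were small against their errors. Of 7 members 5 had a positive and 2 a negative difference, none passed (smallest adjusted p = 0.71, limma) and the median was 0.33 (0.31 with quantile normalization, 0.54 after centring on library medians). Without vehicle library 3 the median was -0.04, and without vehicle library 1 it was 0.58. Snrpb, which encodes SmB, had log2 values of 6.63, 5.74 and 6.11 for vehicle and 6.04, 6.51 and 6.97 for Nrg-1β1, in the order of libraries 1 to 3 as below (16 to 1571 and 12 to 40 reads). The groups overlapped, and the difference was 0.35 ± 0.36 (SE, adjusted p = 0.71, limma). Snrpd3 was at 5.82, 5.65 and 5.48 in vehicle and 5.33, 4.88 and 6.15 in Nrg-1β1, a difference of -0.20 ± 0.41 (adjusted p = 0.84, limma). Nrg-1β1 library 3 was the highest of the 6 for both genes. Snrpd1 was at 5.49, 3.73 and 4.00 in vehicle and 4.29, 5.31 and 4.82 in Nrg-1β1, with only 3 to 8 reads in the shallow libraries. Vehicle library 1 was above every other library for Snrpd1, and the difference was 0.40 ± 0.54 (adjusted p = 0.75, limma). The other 4, Snrpd2, Snrpe, Snrpf and Snrpg, differed by -0.26 to 0.40.

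Among the proteins particular to the U1 and U2 snRNPs 2 of 4 differences were positive and none passed. Snrpa1, which encodes the U2 protein A′, was at 5.98, 5.25 and 5.21 in vehicle and 4.90, 3.19 and 5.34 in Nrg-1β1. Nrg-1β1 library 2, with 1 read, set it lowest, and the difference was -1.0 ± 0.54 (SE, adjusted p = 0.45, limma), or -0.36 without that library. Its partner on the U2 RNA, Snrpb2, was at 6.08, 5.82 and 4.51 in vehicle and 5.33, 5.49 and 5.44 in Nrg-1β1, a difference of -0.05 ± 0.44 (adjusted p = 0.97, limma). The vehicle libraries of Snrpb2 lay on both sides of the Nrg-1β1 libraries. Snrpa, which encodes the U1 protein A that binds a loop of the U1 RNA, was at 5.36, 4.99 and 4.59 in vehicle and 4.62, 5.64 and 5.63 in Nrg-1β1, a difference of 0.32 ± 0.45 (adjusted p = 0.76, limma). Snrpc, the U1 protein that steadies the pairing with the 5′ splice site, had 0 to 4 reads in the shallow libraries, too few for a difference to be detectable.

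SF3a and SF3b genes had 5 positive and 4 negative differences, no call and a median of 0.03 that was -0.02 with quantile normalization, 0.25 after centring and -0.33 with limma-voom (7 genes). Sf3b1, the large subunit that clamps the branch site, was at 7.72, 8.17 and 8.36 in vehicle and 7.36, 7.47 and 6.90 in Nrg-1β1 (3422, 92 and 5356 reads, and 31, 34 and 38). All Nrg-1β1 libraries were below all vehicle libraries, by -0.84 ± 0.30 in the mean (SE, unadjusted p = 0.011, adjusted p = 0.20, limma), short of the threshold. Sf3b2, which contacts the RNA beside the branch site, had the highest level of the 9 per kilobase and log2 values of 8.06, 8.51 and 8.50 in vehicle and 8.29, 8.28 and 9.01 in Nrg-1β1. Its groups overlapped (0.17 ± 0.29, adjusted p = 0.81, limma). Sf3b5, a small subunit, was at 7.01, 5.65 and 5.47 in vehicle and 5.33, 5.78 and 5.63 in Nrg-1β1, a difference of -0.46 ± 0.42 (adjusted p = 0.71, limma) in which vehicle library 1 stood apart from the other 5. Without that library the difference was 0.02. Sf3a2 (5.65, 5.82 and 5.73 against 6.04, 6.24 and 5.95) had groups that did not overlap, with a difference of 0.34 ± 0.35 (adjusted p = 0.71, limma).

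SR protein genes had mostly negative differences. Of 11 members 7 were negative and 4 positive, the median was -0.51 beside 0.03 for all genes, and none passed (smallest adjusted p = 0.18, limma). The median was -0.63 with quantile normalization, -0.30 after centring on library medians and -0.75 with limma-voom (10 genes). It came to -0.28 without vehicle library 1. With depth class (deep or shallow) entered as a term, which sets Nrg-1β1 against vehicle library 2 alone, it was -0.20. Srsf9, an SR protein with a short arginine and serine stretch, was at 6.96, 6.77 and 6.54 in vehicle and 5.93, 5.49 and 5.95 in Nrg-1β1. Its 3 Nrg-1β1 libraries, with 11, 8 and 19 reads, lay below the vehicle libraries with 1995, 34 and 1469, by -0.97 ± 0.33 (SE, unadjusted p = 0.0092, adjusted p = 0.18, limma). With depth class as a term this was -0.98 (adjusted p = 0.55, limma).

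Srsf2, the other SR gene whose groups did not overlap, was at 8.32, 7.88 and 7.99 in vehicle and 7.61, 7.39 and 7.65 in Nrg-1β1, a difference of -0.51 ± 0.28 (adjusted p = 0.46, limma). Srsf3, the smallest SR protein, which also links splicing to mRNA export, was at 8.54, 7.13 and 7.36 in vehicle and 6.67, 7.30 and 6.90 in Nrg-1β1. Vehicle library 1 was the highest by over 1 unit, the other 5 overlapped, and the difference was -0.72 ± 0.36 (adjusted p = 0.41, limma). Srsf1, the founding SR protein, was at 8.53, 8.40 and 8.62 in vehicle and 8.95, 9.20 and 7.68 in Nrg-1β1. The vehicle libraries lay close together for Srsf1, whereas the Nrg-1β1 libraries lay on both sides of them (0.09 ± 0.34, adjusted p = 0.92, limma). Srsf6, Srsf7, Srsf10 and Srsf11 differed by -0.74 to -0.41, and Srsf4, Srsf5 and Srsf12 by 0.00 to 0.21.

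The hnRNP genes split both ways, with 11 positive and 10 negative differences, no call and a median of 0.01 that was -0.12 with quantile normalization, 0.22 after centring and -0.09 with limma-voom (19 genes). Hnrnph1, which binds runs of G and regulates many brain exons, had the smallest adjusted p of the 52 genes. It was at 7.98, 8.15 and 7.97 in vehicle and 7.26, 7.30 and 6.08 in Nrg-1β1 (4102, 91 and 4093 reads, and 29, 30 and 21). The vehicle libraries lay within 0.2 of each other and above all Nrg-1β1 libraries, for a difference of -1.15 ± 0.33 (SE, adjusted p = 0.099, limma). Across alternatives its adjusted p ran from 0.041 to 0.64. Its close relative Hnrnpf, also a binder of G runs, was at 7.99, 7.39 and 7.92 in vehicle and 6.88, 7.10 and 7.04 in Nrg-1β1, without overlap (-0.76 ± 0.29, adjusted p = 0.25, limma; -0.38 with depth class as a term). Of their relatives, Hnrnph2 differed by 0.16 ± 0.30 and Hnrnph3 by -0.32 ± 0.53. Hnrnpu, a scaffold protein of nuclear RNA and chromatin, and Hnrnpa3 also had groups that did not overlap, with differences of -0.52 ± 0.28 and -0.47 ± 0.32 (adjusted p = 0.45 and 0.58, limma).

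On the positive side, Hnrnpa0 was at 8.59, 9.21 and 8.18 in vehicle and 10.17, 10.06 and 8.84 in Nrg-1β1 (6289, 190 and 4741 reads, and 222, 208 and 149). This hnRNP of the A/B family is encoded by a gene without introns and binds AU-rich elements. Nrg-1β1 libraries 1 and 2 were above all vehicle libraries and library 3 was below vehicle library 2, and the difference was 1.03 ± 0.36 (SE, adjusted p = 0.19, limma), or 0.48 with depth class as a term. Hnrnpc, which binds runs of U and shields cryptic exons, was at 8.32, 8.26 and 7.63 in vehicle and 9.45, 8.92 and 8.48 in Nrg-1β1, without overlap (0.88 ± 0.31, adjusted p = 0.20, limma; 0.69 with depth class as a term). Hnrnpd, known as AUF1, a regulator of mRNA decay, was at 7.89, 8.20 and 8.03 in vehicle and 9.50, 9.10 and 8.02 in Nrg-1β1 (0.84 ± 0.34, adjusted p = 0.27, limma). For all 3 genes library 3 was the lowest of the Nrg-1β1 libraries, as it was for Hnrnph1. Hnrnpa1 was at 7.49, 8.29 and 6.77 in vehicle and 8.34, 8.60 and 8.02 in Nrg-1β1 (0.80 ± 0.35, adjusted p = 0.32, limma). With depth class as a term its difference was 0.03 (adjusted p = 1.00, limma). Hnrnpa1 has many near-identical processed copies, and whether its reads were split among them was not tested.

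The most abundant, Hnrnpa2b1, was at 9.26, 9.69 and 9.25 in vehicle and 9.36, 9.48 and 8.84 in Nrg-1β1, with overlapping groups (-0.17 ± 0.29, adjusted p = 0.80, limma). Hnrnpab and Hnrnpl, a regulator that binds CA repeats, were higher without overlap by 0.47 ± 0.27 and 0.41 ± 0.27 (adjusted p = 0.49 and 0.58, limma). Hnrnpk, which binds runs of C, differed by 0.55 ± 0.35 (-0.22 with depth class as a term), and Hnrnpr by 0.33 ± 0.36. Hnrnpdl, Hnrnpll, Hnrnpm, Hnrnpul1 and Hnrnpul2 differed by -0.23 to 0.0052. The pseudogene Hnrnpa1l2-ps2 had 7, 0 and 4 reads in the Nrg-1β1 libraries, so its value of 0.71 ± 0.69 says little.

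Inside the vehicle group these genes differed by role. Between the 2 deep vehicle libraries, where counting error is small, all 7 Sm core genes and all 4 U1 and U2 protein genes were higher in library 1 than in library 3. The median difference was 1.46 for the Sm core, 0.90 for the U1 and U2 proteins, 0.34 for SR, 0.00 for hnRNP and -0.07 for SF3 genes. Snrpd2 had 1531 reads in vehicle library 1 and 283 in library 3 (log2 values 6.60 and 4.40), and Snrpe 605 and 98 (5.34 and 3.31). Snrpb2, Sf3b5 and Srsf3 were higher in library 1 by 1.57, 1.54 and 1.18, while Hnrnph3 and Hnrnpul1 were lower by -0.91 and -0.82. The shallow libraries gave 5.25 for Snrpd2 in vehicle library 2 and 5.33, 5.11 and 5.88 in the Nrg-1β1 libraries, all between the deep vehicle libraries.

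This difference fell off with transcript length. Across the 52 genes Spearman's rho between length and vehicle library 1 minus 3 was -0.57, and across 6544 genes whose mean normalized count was 50 or more and a length it was -0.64. Genes are not independent replicates, and all points share the same 2 libraries. Transcripts of up to 1000 bases differed by a median of 1.02 among 5 of the 52 genes and 1.07 among 364 of all genes, and those over 4000 bases by -0.34 among 8 and -0.30 among 2456. The Sm core genes, with a median length of 1055 bases, had a median of 1.46, and all genes of 1000 to 2000 bases one of 0.54. These sets are not alike, since Sm core lengths ran from 503 to 3036 bases. Only 1 Sm core gene had a mean normalized count of 50 or more. The difference between Nrg-1β1 and vehicle had a rho of only -0.11 with length across the 52 genes and -0.09 across all.

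**Figure D3:**
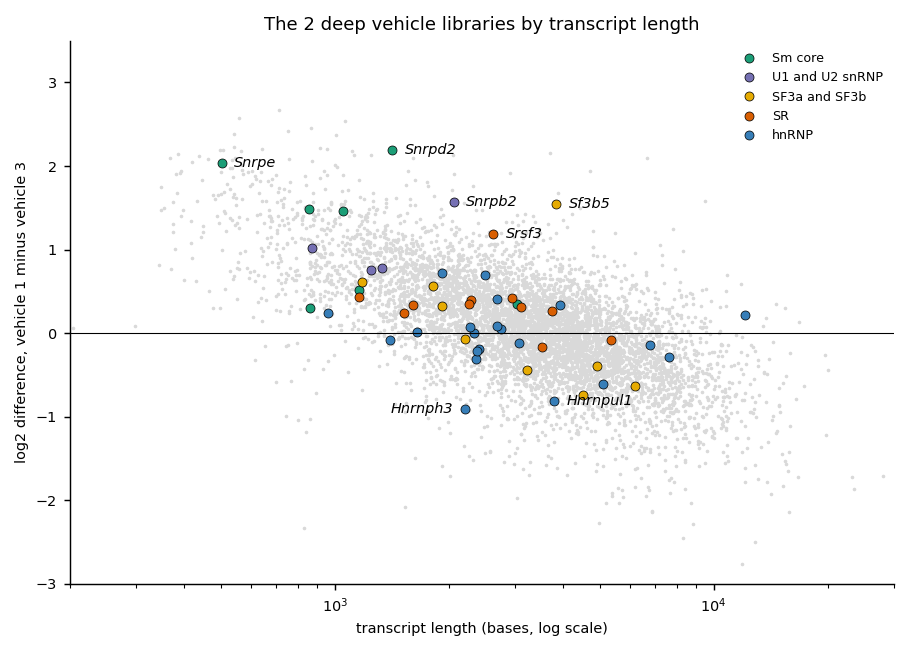
Difference between the 2 deep vehicle libraries (log2 scale, library 1 minus library 3) against transcript length in bases on a log axis. Grey points are genes whose mean normalized count was 50 or more and coloured points the 52 splicing genes by role; short transcripts such as Snrpe and Snrpd2 lie about 2 units above 0 and most transcripts over 4000 bases lie below it.

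The rest of the splicing pathway was read from 8 lists with 174 measured genes of 177 listed symbols. In these 75 differences were positive and 99 negative, and the median was -0.09. At an adjusted p of 0.05 (limma) 1 gene fell and 0 rose, beside 0.625% lower and 0.438% higher among all genes. Of the 174 genes, 110 had a mean normalized count of 50 or more. At an unadjusted p of 0.05, 19 were lower and 14 higher, beside 6.86% lower and 6.15% higher among all genes. Among the 6731 genes at that level these shares were 7.96% and 11.8%, whereas the pathway counts are over all 174 genes. In the fit restricted to genes at that level, 23 of the 110 pathway genes and 1212 of the 6731 passed at an unadjusted p of 0.05 (limma). The groups did not overlap for 22 lower and 16 higher genes, beside 10.4% lower and 7.37% higher among all genes. Among those 6731 the shares were 9.55% lower and 13.7% higher.

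The gene that fell was Clk1, a kinase of the CLK family that phosphorylates SR proteins in the nucleus and releases them from their stores. It was at 6.86, 7.13 and 7.39 in vehicle and 4.62, 6.33 and 5.23 in Nrg-1β1. All Nrg-1β1 libraries, with 4, 15 and 11 reads, were below all vehicle libraries, with 1855, 44 and 2710, and the difference was -1.73 ± 0.40 (SE, adjusted p = 0.045, limma). The call was close to the threshold. It was lost without any 1 of the 6 libraries (adjusted p from 0.12 to 0.41, limma, difference from -2.20 to -1.35) and with limma-voom (0.26). Quantile normalization, a minimum mean normalized count of 50 and offsets of 1 and 16 also lost it. Not every alternative did, since the smallest adjusted p of Clk1 across alternatives was 0.0023 (limma). The SR kinase list described below, to which Clk1 belongs, had 1 call after centring on library medians and 1 with replicate number as a term. With depth class as a term the difference was the same size, -1.73, without passing (adjusted p = 0.61, limma).

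Clk1 stood in the list of SR protein kinases, partners and transport factors, whose 16 measured genes had a median of -0.74, with 12 negative. The groups did not overlap for 8 lower and 1 higher of them. The shares were 10.4% and 7.37% of all genes, and 9.55% and 13.7% where the mean normalized count was 50 or more. The list median was -0.72 with quantile normalization, -0.53 after centring on library medians, -0.75 with limma-voom and -0.76 with depth class as a term. The other CLK genes did not pass. Clk4 was at 6.17, 6.23 and 6.11 in vehicle and 4.62, 5.11 and 5.44 in Nrg-1β1 (-1.11 ± 0.38, adjusted p = 0.18, limma). Clk2 and Clk3 differed by -0.71 ± 0.45 and -0.77 ± 0.37, Clk3 without overlap. Acin1, a component of a complex that binds spliced mRNA, was at 8.49, 7.70 and 7.94 in vehicle and 6.15, 7.20 and 7.42 in Nrg-1β1 (-1.12 ± 0.35, adjusted p = 0.13, limma). Son, a large protein that organises nuclear speckles, was at 9.14, 9.51 and 9.38 in vehicle and 8.43, 8.71 and 8.73 in Nrg-1β1 (-0.72 ± 0.27, adjusted p = 0.23, limma). Tnpo3, the importin that carries SR proteins into the nucleus, went the other way, at 7.21, 6.99 and 6.96 in vehicle and 8.32, 8.05 and 7.54 in Nrg-1β1 (0.91 ± 0.30, adjusted p = 0.15, limma). Of the SRPK genes, a second family of SR kinases, Srpk1 and Srpk2 differed by -0.16 ± 0.46 and 0.26 ± 0.29. Srpk3, with vehicle read counts of 333, 4 and 237 against 0, 0 and 4, differed by -1.60 ± 0.60 without overlap (adjusted p = 0.23, limma), a fitted value that rests on the offset where reads are 0.

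**Figure D4:**
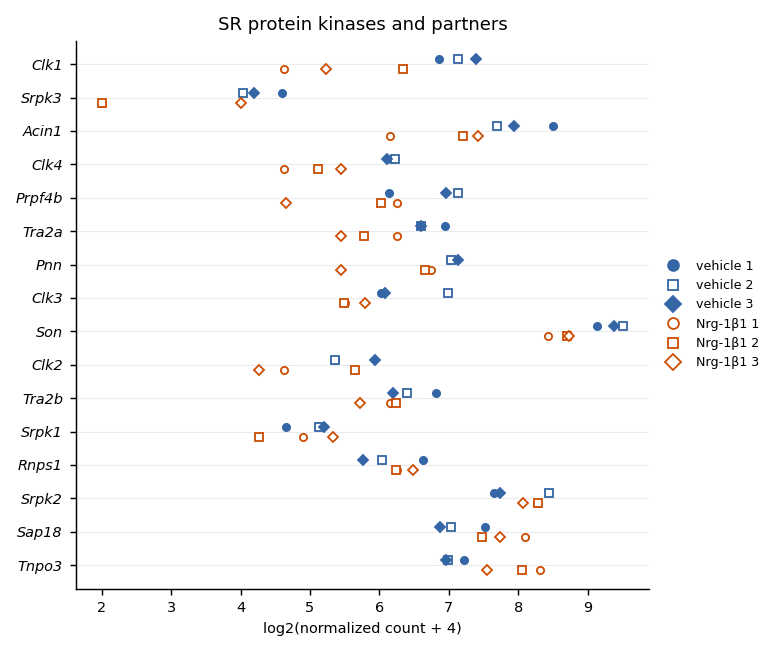
Log2(normalized count + 4) of the 16 SR protein kinases and partners in each library, with blue for vehicle, orange for Nrg-1β1 and filled symbols for the 2 deep libraries, ordered by the difference between groups. Clk1, Clk4, Acin1 and Son are among the 8 genes with all Nrg-1β1 libraries below all vehicle libraries, and Tnpo3 is the 1 gene with them above.

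In the other lists 0 genes passed in the main fit. Prpf38b, Thoc3, Alyref and Ybx1 passed in at least 1 alternative (smallest adjusted p 0.033, 0.037, 0.031 and 0.0065, limma). Calls under each alternative are counted in the closing section. Among factors for activation and catalysis (26 genes, median -0.09) Prpf38b, an SR-like protein, came nearest, at 7.36, 7.56 and 7.13 in vehicle and 5.66, 6.03 and 6.53 in Nrg-1β1 (-1.28 ± 0.33, adjusted p = 0.061, limma), and Cwc15 differed by 1.02 ± 0.34. In the exon junction and mRNA export list (20 genes, median -0.32) Thoc3, of the THO complex, and Alyref, an export adaptor, were higher without overlap, by 1.25 ± 0.36 and 1.42 ± 0.41 (adjusted p = 0.10 for each, limma). In the U6 and tri-snRNP list (18 genes, median -0.24) Lsm6, of the U6 ring, was at 6.91, 6.64 and 6.18 in vehicle and 7.45, 7.59 and 7.76 in Nrg-1β1 (1.02 ± 0.31, adjusted p = 0.11, limma), and Sart3 differed by -0.85 ± 0.37. Branch site factors (15 genes, median -0.19) were led by the helicase gene Dhx15 (-0.94 ± 0.31) and Rbm5 (-1.13 ± 0.39). In the list of U1, U5 and minor snRNP proteins (15 genes, median -0.23) Snrnp70, the U1 70K protein, differed by -0.60 ± 0.32 and Rnpc3 by -0.70 ± 0.52. Among snRNP assembly factors (16 genes, median 0.09) Tgs1, which methylates the cap of snRNAs, differed by -1.22 ± 0.55 and Ddx20 by -0.89 ± 0.57.

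Tissue and cell type regulators (48 genes) had a median of 0.26 with 32 positive differences, and 0.06 with depth class as a term. Ptbp3, of the polypyrimidine tract binding family, differed by -1.02 ± 0.36 without overlap. Ybx1, a cold shock protein that binds mRNA, was at 7.99, 10.56 and 7.84 in vehicle and 9.49, 9.87 and 11.15 in Nrg-1β1 (1.37 ± 0.54, adjusted p = 0.27, limma). The groups overlapped, since vehicle library 2 was above Nrg-1β1 libraries 1 and 2, and with depth class as a term its difference was -0.40. All 4 shallow libraries were above both deep ones.

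**Figure D5:**
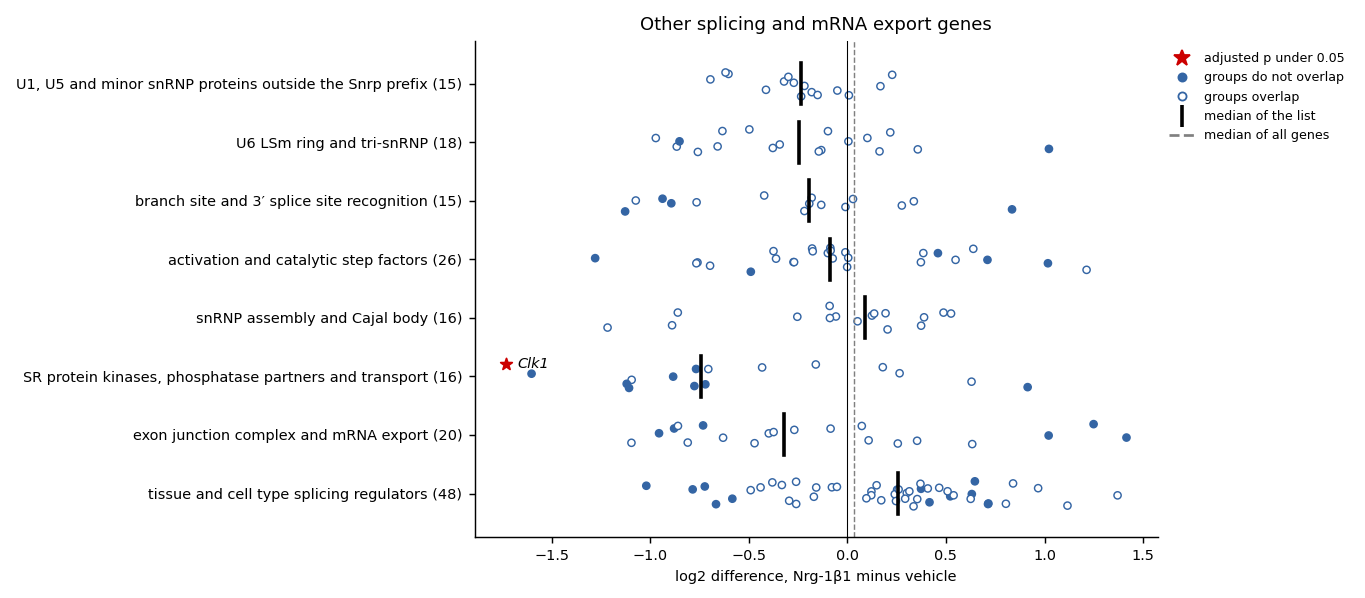
Difference between groups (Nrg-1β1 minus vehicle, log2 scale) for the 174 measured genes of the 8 splicing and export lists, with the number of genes of each list in brackets. The star marks Clk1, the gene past the threshold, filled points have groups that do not overlap, black bars are list medians, and the dashed line is the median of all genes; the SR kinase list has the lowest median, -0.74.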

How the data were processed

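RNA of GFP-positive hippocampal cells was sequenced in 3 vehicle and 3 Nrg-1β1 libraries. Per the labels' protocols, RNA was purified on columns and libraries made with an NEB kit, and Trimmomatic and Bowtie2 are named in the submitters' processing notes. The sources used here do not give the genome build, read counter, strand setting or scaling. The authors deposited log2 values per gene, read here from the values as log2(normalized count + 4). After 4 was taken off, values of up to 1000 reads were whole multiples of 1 step per library, within 3.3e-06 of a read. Of 27102 rows, 6779 were blank. The main test was limma 3.58.1 with an intensity trend (R 4.3.3, two-sided), group as the only term and Benjamini-Hochberg adjustment over 20323 genes. Members and lists were chosen with earlier results of these data known.

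Named are, by rule, members past the threshold and, in each role, the 2 with the highest mean log2 value and the 2 with the smallest p; in each pathway list, those past the threshold and the 2 with the smallest p. Others were singled out after their values were seen. Alternatives were quantile normalization, centring on library medians, a minimum mean normalized count of 50, offsets of 1 and 16, limma-voom on recovered reads with TMM scaling, depth class or replicate number as a term, and leaving out each library. Lengths are medians over APPRIS principal transcripts of GENCODE M21, matched for all 52 members. Reads carry no molecular identifiers. The 3 listed symbols without a value were not analysed here. Among them, Nhp2l1 is an older symbol of Snu13, which was measured.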

Additional observations from a re-analysis of the deposited data

How the results depend on the processing

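The count of called splicing genes was 0 of 52 in the main analysis and in every alternative but 1, the replicate block, where Hnrnph1 passed (1 call, adjusted p = 0.041, limma). Whether same-numbered libraries form pairs was not settled. The correlations of same-numbered deviations from the group mean were -0.27, -0.07 and -0.30, and those of differently numbered ones ran from -0.011 to 0.31. With 3 libraries per group and unequal depth, these values cannot exclude a pairing. The block moved the count over all genes from 216 (89 higher, 127 lower) to 627 (285 higher, 342 lower). Over the other pathway genes it moved the count from 1 to 4. The count over all genes was 65 with quantile normalization (12 higher, 53 lower), 499 after centring on library medians (335 higher, 164 lower, with a median of all genes of 0.25), 49 with a minimum mean normalized count of 50 (11 higher, 38 lower), 129 with an offset of 1, 1 with limma-voom and 0 with depth class as a term. Leaving out each library gave 0 to 56 over all genes. The other pathway genes had 0 calls with quantile normalization, the minimum of 50, offsets of 1 and 16, limma-voom, depth class as a term and each library left out, and 3 calls after centring. The median difference of the 52 genes was 0.22 after centring on library medians, -0.13 with the minimum of 50 (37 genes) and -0.33 with limma-voom, beside 0.25, 0.04 and -0.06 for all genes tested there, and -0.07 to 0.10 with a library left out. That of the other pathway genes was 0.12 after centring and -0.18 with limma-voom, and -0.15 to -0.016 with a library left out. The cause was not tested.

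Among the genes named by rule 398 of 432 values kept their direction and side of the threshold. Signs turned among these, all for uncalled genes, for Snrpd3 (0.015) and Hnrnpa2b1 (0.043) after centring. They turned for Snrpb2 with quantile normalization (0.097) and centring (0.17), and for Sf3b2 (-0.024) and Srsf1 (-0.094) with quantile normalization. Srsf1 also turned with limma-voom (-0.094), and Ybx1 with depth class as a term (-0.40). Other genes given with values were not in this count, and some of them turned too. With depth class as a term Hnrnpk was at -0.22, Hnrnph3 at 0.63 and Srpk2 at -0.23. With limma-voom Hnrnph2 was at -0.087. With a library left out Snrpd3 ran from -0.55 to 0.085, Snrpb2 from -0.53 to 0.26, Sf3b5 from -0.75 to 0.020, Sf3b2 from -0.072 to 0.29, Srsf1 from -0.20 to 0.56 and Hnrnpa2b1 from -0.30 to 0.019. Depth limits all of this: a gene of the 52 had a median of 19 to 38 reads in a shallow library, against about 2000 in a deep one.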
